A study of Mus musculus with 7 samples.

Results

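The translation initiation factor genes are the 51 genes, of 16760 in the deposited table, whose mouse symbol begins with Eif and a factor number from 1 to 6, with the 5 symbols that contain -ps left out. They were measured by RNA sequencing in mouse cells from 3 libraries of cells that carry a chromosome 5 deletion at band 5G2 (5G2del) and from 4 wild-type (WT) libraries, all of strain C57/B6. The cells lacked CD150, the surface protein encoded by Slamf1, and their labelled cell type is HSC (haematopoietic stem cell); total RNA was amplified before sequencing. According to the series' design text, mouse 5G2 corresponds to human 7q22, and the comparison asks how cells with the deletion differ from cells without it. No label used here gives the age of the mice, the ends or zygosity of the deletion, or the animal behind each library. The p-values therefore measure the spread between these libraries, which may be technical.

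Translation initiation factors bring the ribosome to the start codon of an mRNA. eIF4F, made of the cap-binding eIF4E, the scaffold eIF4G and the helicase eIF4A, engages the mRNA, eIF3 and the scanning factors organise the small ribosomal subunit, and eIF2 delivers the initiator tRNA in a GTP-bound form that eIF2B regenerates. Both ends of the pathway are regulated: 4E-BP proteins hold eIF4E until mTORC1 phosphorylates them, and the eIF2alpha kinases of the integrated stress response phosphorylate eIF2, which then blocks eIF2B. Blood stem cells are known for a low rate of protein synthesis.

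Libraries are named by group and letter in the order of the table's columns, and values are always given in alphabetical order, first for 5G2del (A to C), then for WT (A to D), since the columns do not show which sample is which. All values are log2 CPM (the log2 of counts after scaling for a library size) unless said otherwise. The ± after a log2 fold change (5G2del over WT) is its standard error from limma. The library totals ran from 37930174 to 52194274 expected counts. The library sizes behind the deposited values differ from these totals, and ran from 34865421 (WT-C) to 55716550 (WT-A). At those sizes 3 counts equal between 0.0538 and 0.0860 CPM. Of the stem and progenitor markers, Kit lay between 7.98 and 8.23 and Cd34 between 7.88 and 8.48 in every library, while Slamf1, which encodes the marker the cells were selected to lack, was low but above the floor, at 0.40 to 0.65 in 5G2del and -2.22 to -0.26 in WT. Its groups did not overlap (1.66 ± 0.75, unadjusted p = 0.0504, adjusted p = 0.989, limma). The same held for 5.7% of all genes, 2.92% with 5G2del higher. Markers of neutrophils and monocytes set 2 libraries apart, 1 in each group. Their summed level was 4972 CPM in 5G2del-A and 1680 CPM in WT-A, against 294.8 to 405.1 CPM in the others.

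No initiation factor gene passed an adjusted p of 0.05 in the comparison of 5G2del with WT (limma with trend, Benjamini-Hochberg over 16760 genes; lowest adjusted p of a member 0.989), and 0% of all genes did. At an unadjusted p under 0.05 there were 0 members, against 3.91% of all genes (1.68% higher and 2.24% lower in 5G2del). In the authors' deposited table Eif2b2 was the 1 member under it (authors' p = 0.0473). The median log2 fold change of the 51 genes was 0.08, beside 0.03 for all genes, with 33 higher and 18 lower in 5G2del; 53.3% of all genes had a higher mean there. Without mitochondrial rRNA in the library size the members divided into 27 higher and 24 lower, with a median of 0.01 beside -0.05 for all genes. Here and below, this setting takes the plain sum of the other counts as the library size. It thus also drops the library sizes behind the deposited values. Together the members took 0.598% ± 0.0650 of the counts in the 5G2del libraries (SD, n = 3) and 0.575% ± 0.0581 in the WT libraries (SD, n = 4), with an exact two-sided permutation p of 0.629 and a smallest possible p of 0.0286. Mitochondrial rRNA took 24.8% ± 2.60 of the counts in 5G2del and 29.4% ± 3.86 in WT (SD, exact permutation p = 0.171). With it left out, the members took 0.793% ± 0.0610 in 5G2del and 0.815% ± 0.0610 in WT (SD, exact permutation p = 0.686). In a bulk sample, more RNA per cell and more cells of one type cannot be told apart.

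The intervals around these values were narrow enough to bound most differences. For 46 of the 51 genes the 95% interval of the log2 fold change lay wholly between -1 and 1, and for 16 between -0.5 and 0.5. The exceptions to the wider bound were Eif2b2, Eif2b3, Eif2b4, Eif4ebp1 and Eif4ebp3. The only gene whose lower bound went below -1 was Eif4ebp3.

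**Figure D1:**
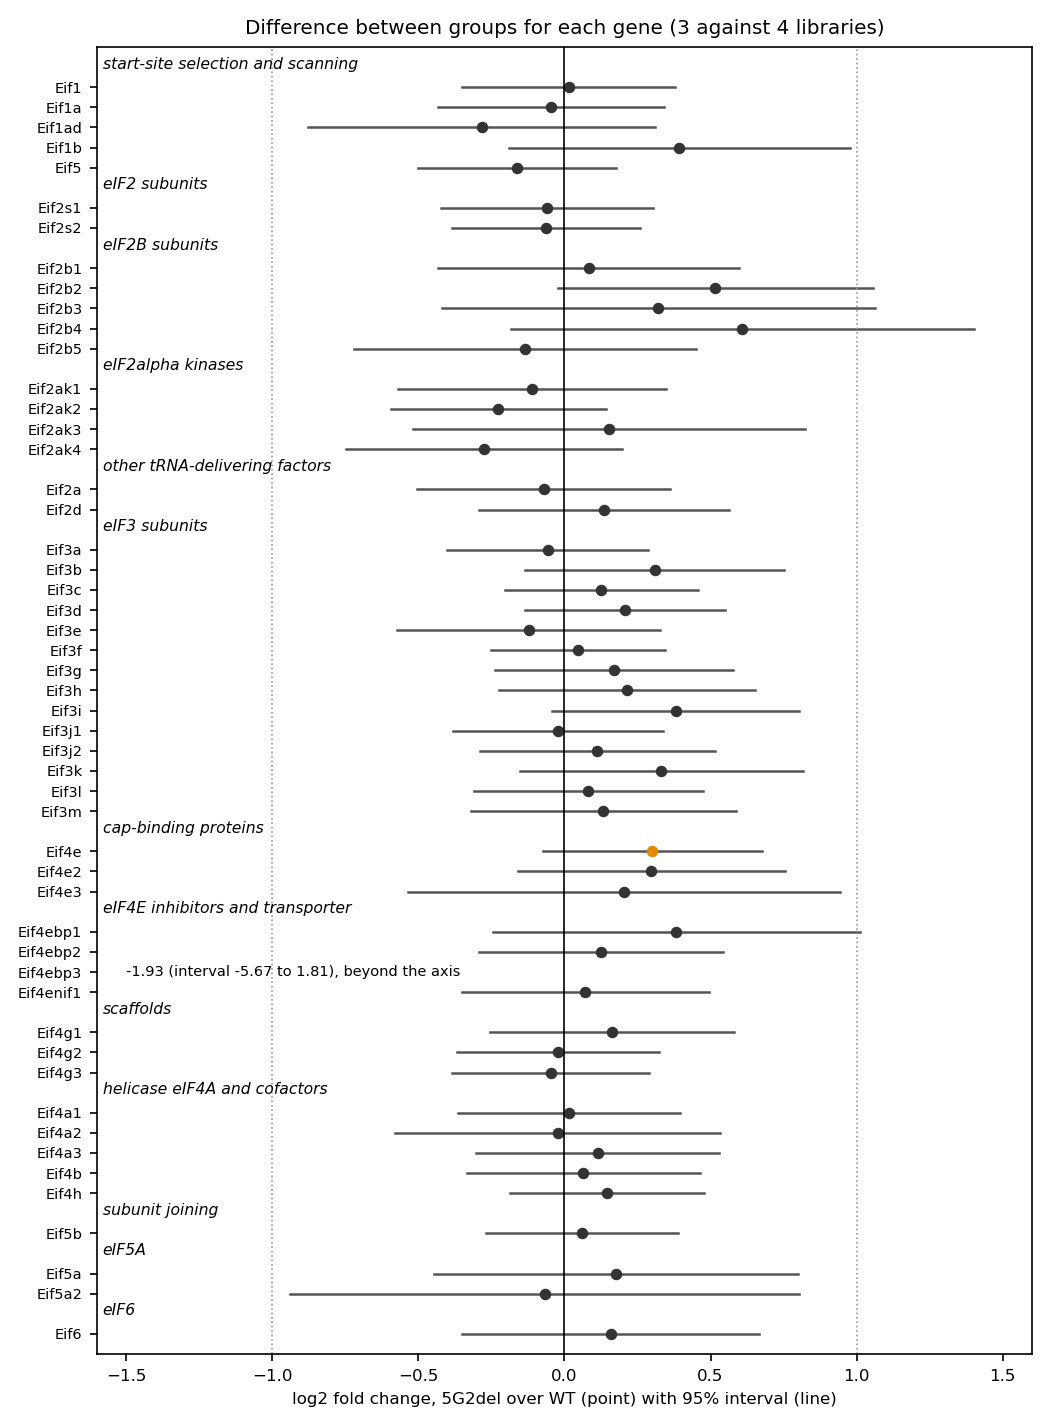
Log2 fold change of each of the 51 initiation factor genes, 5G2del over WT (point), with its 95% interval (line), in blocks by role; Eif4e, the gene whose groups do not overlap, is orange. Every interval includes 0, and 46 lie between the dotted lines at -1 and 1.

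Levels, compared between genes per kilobase of annotated exon, spanned a wide range. Eif3h, an eIF3 subunit, was the highest at 6.70 ± 0.30 log2 CPM per kb (SD, n = 7), followed by Eif4b, a cofactor of the helicase, at 6.47 ± 0.23 and Eif5a at 6.21 ± 0.46. Eif4a2 (6.17 ± 0.39) and Eif3f (6.15 ± 0.09) came next, and neighbours among these 5 differed by no more than their spread over libraries. At the low end stood Eif2b3 at 0.56 ± 0.47, Eif2ak3 at 0.26 ± 0.30, Eif5a2 at 0.24 ± 0.50 and Eif4ebp3 at -1.27 ± 2.77. Eif4e was in the lower part of this order at 2.91 ± 0.22, below its eIF4F partners, the helicase genes Eif4a1 (5.88 ± 0.21) and Eif4a2 and the scaffold gene Eif4g1 (4.28 ± 0.26). Exon length counts every annotated exon, so genes with long untranslated exons that are not in use appear lower on this scale.

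**Figure D2:**
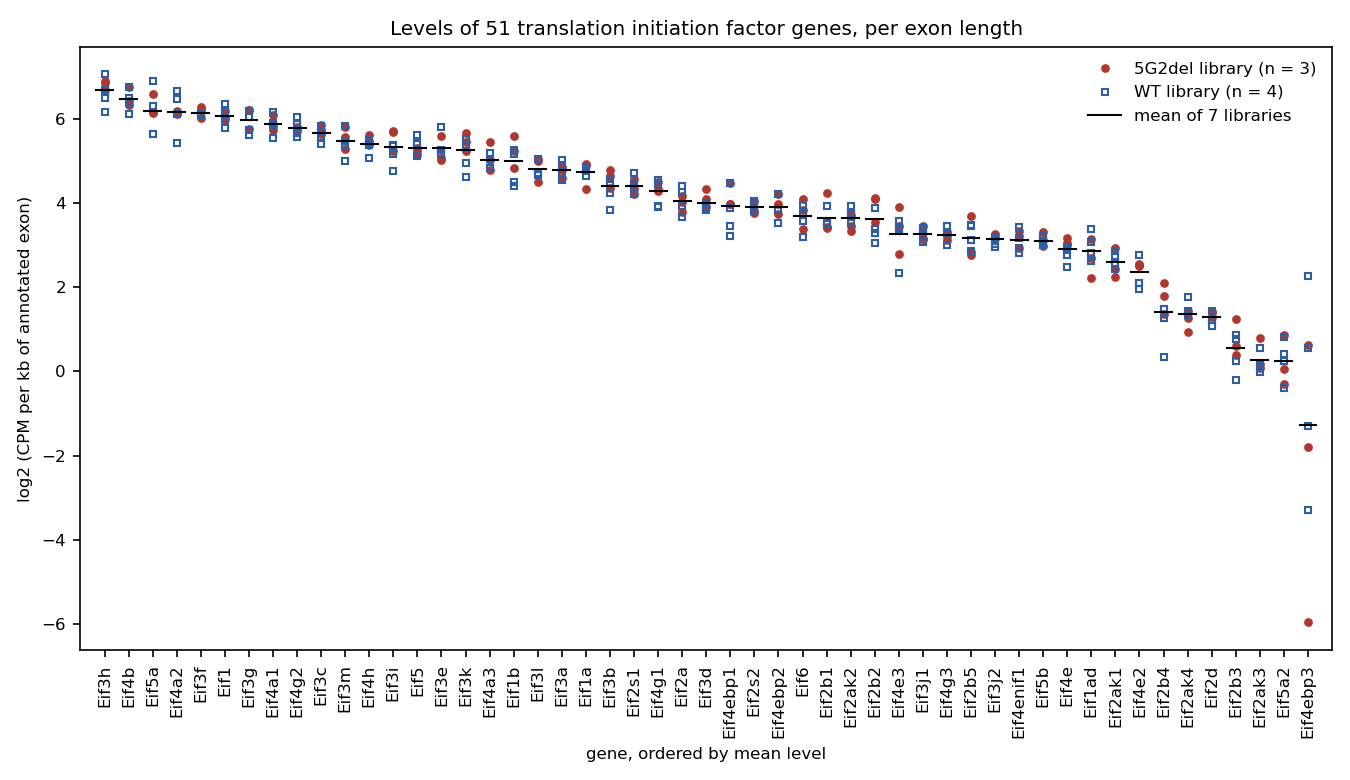
Level of each initiation factor gene in log2 CPM per kilobase of annotated exon, ordered by the mean of the 7 libraries (bar), with 5G2del libraries as red circles and WT libraries as blue squares. The order runs from Eif3h (6.70) to Eif4ebp3 (-1.27); the groups overlap for 50 genes and lie apart for Eif4e.

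The cap-binding genes were the block with the one separation between groups. Eif4e, which encodes the protein that binds the mRNA cap, stood at 5.59, 5.77 and 5.64 in 5G2del and at 5.35, 5.08, 5.55 and 5.48 in WT. All 3 5G2del libraries were above all 4 WT libraries, by a small margin over WT-C. The log2 fold change was 0.30 ± 0.17 (unadjusted p = 0.106, adjusted p = 0.989; exact permutation p = 0.0571). It was the only member whose groups did not overlap, while 5.7% of all genes did not overlap, 2.92% with 5G2del higher, so 1 of 51 is below the background. Leaving out a library cannot make groups that lie apart overlap. The fold change was then between 0.21 (without WT-B) and 0.36 (without WT-C). The separation was lost when plain sums without mitochondrial rRNA replaced the library sizes behind the deposited values. The part of each change was not tested.

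Eif4e2, encoding the cap-binding relative 4EHP, which represses translation, was at 5.45, 5.40 and 5.47 in 5G2del and at 5.02, 4.87, 5.01 and 5.67 in WT (0.30 ± 0.21). WT-D was above every 5G2del library and the other WT libraries were below them. Without WT-D the unadjusted p (limma) was under 0.05, as for 3.82% of all genes. Eif4e3, another relative, lay between 3.68 and 5.25 with a fold change of 0.20 ± 0.34, and its interval ran from -0.53 to 0.94. All 3 cap-binding genes thus had higher means in 5G2del and none passed the test.

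The promoter of Eif4e holds the sequence CACGTG, the E-box read by MYC and related factors, and is shown because Eif4e and the scaffold gene Eif4g1 form the cap-binding complex. The windows are from RefSeq (GRCm38.p6), 5′ to 3′ on the gene's strand, with the motif in capitals; the first lies 228 bases before the downstream of the 2 RefSeq starts of Eif4e (chr3:138527020-138527065, plus strand), the second 64 bases before the same start (chr3:138527184-138527229, plus strand) and the last 54 bases before an Eif4g1 start (chr16:20672653-20672698, plus strand). The window of the upstream Eif4e start does not hold the motif.
Eif4e, distal: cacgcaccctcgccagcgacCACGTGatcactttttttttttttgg
Eif4e, proximal: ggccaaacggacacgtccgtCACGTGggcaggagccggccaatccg
Eif4g1: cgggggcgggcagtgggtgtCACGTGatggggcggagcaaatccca
CACGTG, which reads the same on both strands, was found between 250 bases before and 50 after a start in 10 of the 40 members with a RefSeq entry (25.0%), against 8.09% of 27025 genes in the reference and 11.7% of the 10793 that are also in the deposited table. The 10 were Eif1b, Eif3a, Eif3f, Eif3k, Eif4a1, Eif4e, Eif4g1, Eif4h, Eif5a and Eif5a2, of which 8 had higher means in 5G2del (median log2 fold change 0.15). This motif was chosen after the values had been seen; a match describes the letters of the window and does not show that a factor binds there.

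Of the 4 genes for inhibitors and a transporter of eIF4E, 3 had higher means in 5G2del and none passed the test. Eif4ebp1, encoding the 4E-BP1 inhibitor, was at 5.12, 5.61 and 5.11 in 5G2del and at 4.35, 5.61, 4.59 and 5.02 in WT, with a fold change of 0.38 ± 0.29. WT-B equalled the highest 5G2del library. Without it the groups lay apart, as did those of 11.6% of all genes, and the fold change was 0.62. It was 0.20 without WT-A and 0.22 without 5G2del-B. Eif4ebp2 was at 6.75, 6.28 and 6.52 against 6.38, 6.75, 6.06 and 6.39, a fold change of 0.13 ± 0.19 that went to 0.01 without 5G2del-A or WT-C and to 0.25 without 5G2del-B or 0.24 without WT-B. Both groups covered nearly the same range.

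Eif4ebp3 was too sparse to compare. Its expected counts were 0, 49.2 and 8.4 in 5G2del and 60.4, 2.65, 10.1 and 175 in WT, and no fold is given against a library at 0. The gene also lies on the same strand as an overlapping protein-coding gene, so its counts are uncertain. Eif4enif1, whose product 4E-T carries eIF4E into the nucleus, ranged from 5.49 to 6.11 (0.07 ± 0.19).

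Among the scaffolds, Eif4g1 was at 7.21, 7.36 and 7.16 in 5G2del and at 7.32, 7.43, 6.79 and 6.78 in WT. The 5G2del values sat inside the WT range, where WT-A and WT-B were high and WT-C and WT-D low, and the fold change was 0.16 ± 0.19. It was 0.10 without 5G2del-B, 0.07 without WT-C, 0.06 without WT-D and 0.28 without WT-B. Eif4g2 (DAP5, which acts without eIF4E) and Eif4g3 were at -0.02 ± 0.16 and -0.05 ± 0.15.

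The helicase genes differed more between WT libraries than between groups. Eif4a1 was at 7.85, 8.22 and 7.96 in 5G2del and 7.97, 8.29, 7.68 and 8.04 in WT, a fold change of 0.02 ± 0.17 whose sign turned under 4 other settings. Its paralog Eif4a2 was tight in 5G2del, at 8.57, 8.60 and 8.53, and wide in WT, at 7.84, 8.55, 9.08 and 8.89 (-0.02 ± 0.25). Per kilobase, Eif4a2 minus Eif4a1 was 0.43, 0.08 and 0.27 in 5G2del and -0.43, -0.04, 1.11 and 0.56 in WT. The WT libraries therefore did not share an order of the paralogs, with Eif4a1 ahead in WT-A and WT-B and Eif4a2 ahead in WT-C and WT-D. RSEM divides reads between such similar genes, and Eif4a2 hosts small nucleolar RNAs on its own strand. Eif4a3, which works in the exon junction complex, Eif4b and Eif4h, a cofactor of eIF4A, were at 0.11 ± 0.19, 0.06 ± 0.18 and 0.15 ± 0.15.

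Both measured eIF2 subunit genes had nearly equal means in the groups. Eif2s1, encoding the alpha subunit on which the stress kinases act, was at 6.54, 6.90 and 6.65 in 5G2del and at 6.70, 7.02, 6.77 and 6.52 in WT. The groups overlapped throughout, and the fold change of -0.06 ± 0.17 turned sign without 5G2del-A or WT-B. Eif2s2, the beta subunit, was at -0.06 ± 0.15 with an interval from -0.39 to 0.26. The selection by symbol found no row for the gamma subunit genes Eif2s3x and Eif2s3y, or for Eif1ax and Eif4e1b, so they were not analysed here.

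Of the 5 genes for eIF2B, which recharges eIF2 with GTP, 4 had higher means in 5G2del, and they included the 2 largest fold changes of the family. Eif2b2 (beta subunit) was at 4.46, 5.02 and 5.03 in 5G2del and at 3.97, 4.80, 4.29 and 4.22 in WT. Only WT-B reached above a 5G2del library, 5G2del-A, and the fold change was 0.52 ± 0.24 (unadjusted p = 0.0581, adjusted p = 0.989, exact permutation p = 0.143). Without a library it ran from 0.40 (without WT-A) to 0.70 (without 5G2del-A). The groups no longer overlapped without 5G2del-A or without WT-B (0.68), with adjusted p of 0.986 and 0.833 (limma). Without those libraries 13.8% and 11.6% of all genes had groups apart.

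Eif2b4 (delta subunit) was at 2.75, 3.17 and 3.48 in 5G2del and at 2.87, 1.73, 2.64 and 2.85 in WT. WT-B was the low library and 5G2del-A lay inside the WT range; the fold change was 0.61 ± 0.36 and came down to 0.34 without WT-B. Snx17 overlaps Eif2b4 on the other strand, and the counting is not stated to use strand. Eif2b3 (gamma) was at 0.32 ± 0.34 and Eif2b1 (alpha) at 4.81, 4.79 and 5.61 against 5.30, 4.86, 4.90 and 4.89. For Eif2b1 the highest value was that of 5G2del-C, and the fold change of 0.08 ± 0.23 was -0.19 without it, 0.19 without WT-A and 0.22 without 5G2del-B.

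Eif2b5, the catalytic epsilon subunit, had the one lower mean of the complex. It was at 4.22, 5.08 and 4.15 in 5G2del and at 4.87, 4.83, 4.51 and 4.25 in WT (-0.13 ± 0.27). 5G2del-B was the highest of all libraries and the other two 5G2del libraries the lowest; the value was -0.43 without 5G2del-B and 0.03 without 5G2del-C. Subunits of one complex thus differed in which library was high.

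The eIF2alpha kinases leaned the other way, with 3 of 4 lower in 5G2del. Eif2ak4, encoding GCN2, the sensor of uncharged tRNA, was at 3.83, 4.17 and 4.34 in 5G2del and at 4.33, 4.68, 4.25 and 4.30 in WT (-0.27 ± 0.21, unadjusted p = 0.227). The top 5G2del library reached into the WT range, and the value was -0.13 without 5G2del-A and -0.18 without WT-B. Eif2ak2, encoding PKR, the interferon-induced sensor of double-stranded RNA, was at 5.82, 5.70 and 6.08 against 6.12, 5.87, 6.29 and 6.09 (-0.23 ± 0.17). The overlap was that of 5G2del-C above WT-B. With mitochondrial rRNA left out and plain sums as library sizes the groups did not overlap (-0.30), as for 4.91% of all genes. These changes were not tested apart. The fold change was -0.14 without 5G2del-B.

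Eif2ak1, encoding HRI, the haem-regulated kinase of red cell precursors, was at 5.45, 4.75 and 4.94 in 5G2del and at 5.38, 5.24, 5.08 and 4.94 in WT. 5G2del-A and WT-A, the highest of each group, were also the libraries with the neutrophil and monocyte markers; the part of those cells in the result was not tested. The fold change of -0.11 ± 0.21 ran from -0.31 without 5G2del-A to 0.04 without 5G2del-B. Eif2ak3, encoding PERK, the sensor in the endoplasmic reticulum, was at 2.67, 2.77 and 3.39 against 3.15, 2.58, 2.69 and 2.74 (0.15 ± 0.30), and its sign turned without 5G2del-C (-0.07). Its other values ran up to 0.29 without 5G2del-A.

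The start region of Eif2ak2 is shown because it carries the pattern of interferon-stimulated elements, GAAA, any 2 bases and GAAA again. It lies 18 bases after the RefSeq start on the minus strand (chr17:78882535-78882564, GRCm38.p6) and is in capitals.
Eif2ak2: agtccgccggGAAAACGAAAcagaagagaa
The pattern, searched on both strands and also chosen after the values were seen, occurred in 3 of 40 members (7.5%: Eif2ak2, Eif2s1 and Eif3a) and in 3.99% of the reference genes.

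**Figure D3:**
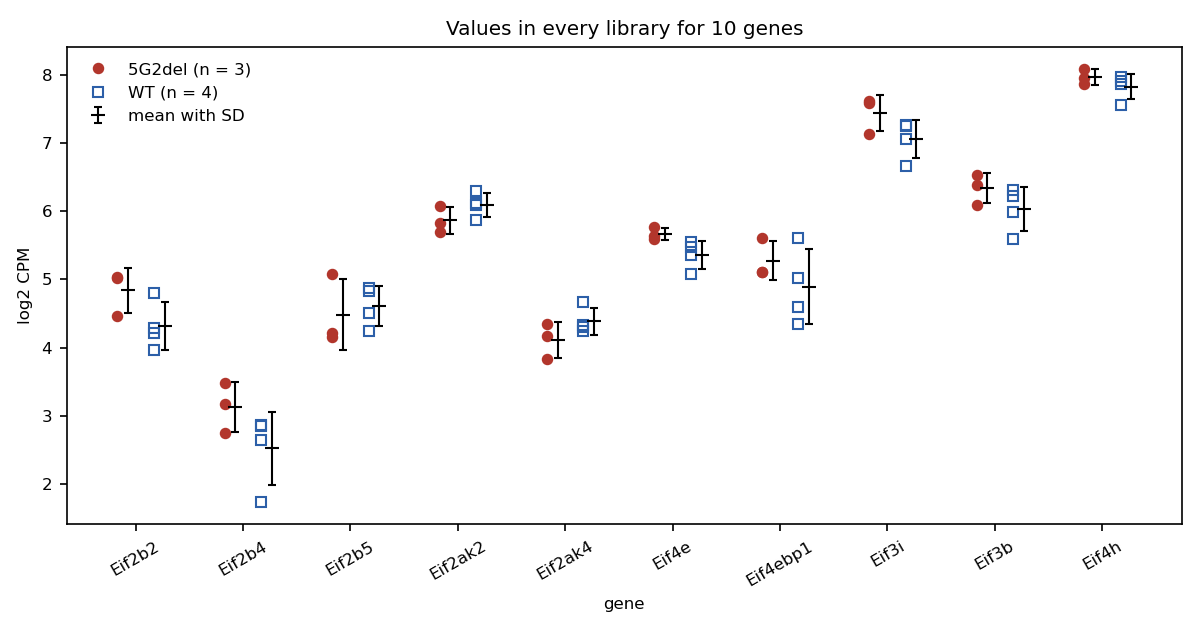
Values in log2 CPM of 10 initiation factor genes in each 5G2del library (red circles, n = 3) and each WT library (blue squares, n = 4), with mean and SD beside them. Eif4e is the gene whose points do not overlap; in Eif2b2 and Eif3i the WT range reaches the lowest 5G2del point.

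The genes downstream of eIF2 leaned towards 5G2del with little beyond the spread of the libraries. Of 23 measured genes of the integrated stress response, 18 had higher and 5 lower means (median 0.23), 0 passed the adjusted test and 1 had an unadjusted p under 0.05, against 1.68% of all genes on the higher side. That gene, Mthfd2, a mitochondrial folate enzyme, was at 2.43, 3.11 and 2.88 in 5G2del and at 2.46, -0.40, 1.13 and 1.02 in WT (1.75 ± 0.59, adjusted p = 0.989). WT-A lay among the 5G2del libraries, and the difference was 1.27 without WT-B and 2.22 without WT-A. Psat1, of serine synthesis, was at 0.46 ± 0.21 and Phgdh, of the same pathway, at 0.28 ± 0.20. Without 5G2del-B they were at 0.28 and 0.09, and Phgdh was at 0.18 without WT-C, while Atf4, the central transcription factor, was at 0.07 ± 0.21. Ddit3, encoding CHOP, lay at 2.56, 2.95 and 2.57 above all WT libraries, of which the highest was at 2.55. Its fold change was 0.39 ± 0.31 (limma, unadjusted p = 0.235), and 2.92% of all genes had groups apart in that direction. The list's median was 0.16 without mitochondrial rRNA in the library size and 0.09 without 5G2del-B or without WT-C.

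The eIF3 subunits made the largest block, and 11 of its 14 genes had higher means in 5G2del, with a median of 0.13. Eif3i, a WD-repeat subunit picked out after its values were seen, was at 7.13, 7.58 and 7.61 in 5G2del and at 6.66, 7.06, 7.26 and 7.27 in WT (0.38 ± 0.19, unadjusted p = 0.0726). 5G2del-A lay inside the WT range; the fold change was 0.25 without WT-A. Eif3b, a core subunit, was at 6.10, 6.54 and 6.39 against 6.23, 6.32, 5.59 and 5.99 (0.31 ± 0.20), or 0.16 without WT-C.

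Eif3h, the gene with the highest level per length, was at 7.37, 7.55 and 7.60 in 5G2del and at 6.86, 7.19, 7.75 and 7.38 in WT. WT-C was above and WT-A below all 5G2del libraries, so that the fold change of 0.21 ± 0.20 was 0.07 without WT-A and 0.37 without WT-C. Eif3k was at 0.33 ± 0.22, Eif3d, which can bind the cap of some mRNAs, at 0.21 ± 0.16, and Eif3g, an RNA-binding subunit, at 0.17 ± 0.19. The lower means were those of Eif3e (-0.12 ± 0.20), Eif3a (-0.06 ± 0.16) and Eif3j1 (-0.02 ± 0.16). Eif3c, Eif3f, Eif3l and Eif3m lay between 0.05 and 0.13. Eif3j2 (0.11 ± 0.18) is a near copy of Eif3j1, and how reads were divided between them is uncertain.

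Eif3f was the steadiest member, with values within 0.27 log2 units over all 7 libraries. It was also the only member of 40 (2.5%) with a RefSeq start of C followed by at least 4 pyrimidines, the start that marks ribosomal protein mRNAs. This start was found in 3.01% of reference genes and 23.7% of 59 ribosomal protein genes. As most ribosomal protein genes lacked it here, a RefSeq start without it does not show that the mRNA lacks it. Eif3e, Eif3h and Eif3i had no RefSeq entry. The run of Eif3f is in capitals from the first transcribed base (chr7:108934405-108934434, plus strand, GRCm38.p6).
Eif3f: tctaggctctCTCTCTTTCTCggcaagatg

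In the scanning block, Eif1b and Eif1ad bounded the range. Eif1b, the paralog of the start codon gatekeeper Eif1, was at 5.02, 5.42 and 5.77 in 5G2del and at 4.58, 4.67, 5.44 and 5.35 in WT. WT-A and WT-B were below the rest, and the fold change of 0.39 ± 0.27 was 0.21 without 5G2del-C and 0.25 without WT-A. Eif1ad, an Eif1a-related gene, was at 3.71, 4.64 and 4.18 against 4.57, 4.87, 4.30 and 4.10 (-0.28 ± 0.27), with values from -0.05 without 5G2del-A to -0.52 without 5G2del-B. The groups overlapped for both. Eif1 (0.01 ± 0.17), Eif1a (-0.05 ± 0.18) and Eif5, the GTPase activator of eIF2 (-0.16 ± 0.15), were nearer to 0.

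The remaining factors showed no separation. Eif5b, which joins the subunits, ranged from 6.27 to 6.60 over the 7 libraries (0.06 ± 0.15). Eif2a and Eif2d, which can deliver tRNA without eIF2, were at -0.07 ± 0.20 and 0.14 ± 0.19. Eif6, which keeps free large subunits apart, was at 4.83, 5.53 and 5.28 in 5G2del and at 5.01, 5.39, 4.63 and 5.18 in WT (0.16 ± 0.23), with the groups interleaved. The fold change was 0.35 without 5G2del-A, 0.27 without WT-B, 0.02 without WT-C and 0.0011 without 5G2del-B.

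Eif5a, the hypusine-carrying factor that helps ribosomes past difficult stretches, was at 7.43, 7.85 and 7.39 in 5G2del and at 6.89, 8.15, 6.90 and 7.57 in WT. The WT libraries enclosed all 5G2del libraries, with a fold change of 0.18 ± 0.28. It was 0.43 without WT-B, and 0.01, 0.02 and 0.03 without WT-A, WT-C and 5G2del-B. Its paralog Eif5a2 was about 6 log2 units lower per kilobase (-6.10 ± 0.37 in 5G2del and -5.86 ± 0.68 in WT) and had a fold change of -0.07 ± 0.40.

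Dohh, the hydroxylase that completes hypusine on eIF5A, had the smallest unadjusted p of the 15 elongation and release genes. It was at 3.64, 3.71 and 3.76 in 5G2del and at 3.09, 1.46, 2.46 and 2.95 in WT, so the groups did not overlap. The fold change was 1.21 ± 0.38 (limma, unadjusted p = 0.00907, adjusted p = 0.989), or 0.87 without WT-B. Of all genes, 2.92% had groups apart with 5G2del higher, and 1.68% had an unadjusted p under 0.05 on that side. Dhps, the enzyme of the preceding step, was at 0.09 ± 0.41. Across that list 11 of 15 genes had higher means (median 0.14), and 9 of 15 without mitochondrial rRNA in the library size.

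**Figure D4:**
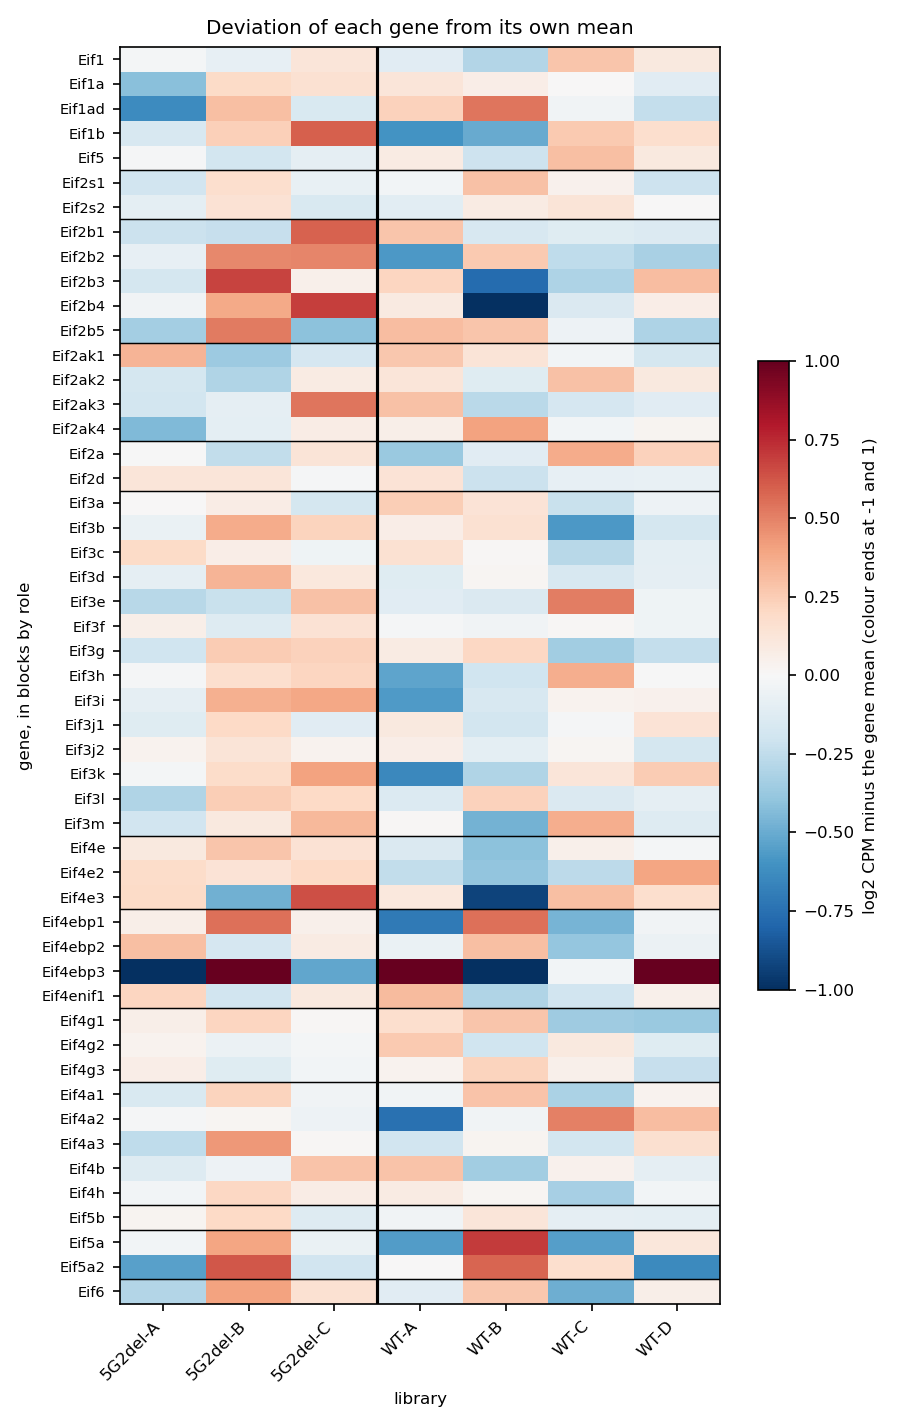
Deviation of each initiation factor gene from its mean over the 7 libraries, in log2 CPM, with genes in blocks by role and the colour ending at -1 and 1. Libraries of one group differ from each other, as WT-A and WT-C do for Eif3h, Eif3i, Eif3k and Eif4a2.

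The lowest and highest values of members fell in different libraries. The median member spanned 0.69 log2 units over the 7 libraries; 11 genes spanned under 0.5 and 12 over 1. WT-B was the lowest library for 14 genes, WT-A and WT-C for 9 each, 5G2del-A for 7, WT-D for 5, 5G2del-B for 4 and 5G2del-C for 3. 5G2del-B was the highest for 16. Some library is lowest for every gene, and the same counts over all genes were not taken. The median deviation of members in a library ran from -0.07 (5G2del-A) to 0.17 (5G2del-B). WT-B also had the most genes of the table at 0, 1104, against 83 to 492 in the others. WT-A and WT-C were opposed within eIF3: WT-A was lowest for Eif3h, Eif3i and Eif3k, and WT-C was lowest for Eif3a, Eif3b, Eif3c, Eif3d and Eif3g and highest for Eif3e, Eif3h and Eif3m. These patterns are descriptions; the causes were not tested.

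Marker lists of other cell types differed between libraries too, and their part in the results was not tested. All 12 measured neutrophil and monocyte markers had higher means in 5G2del, with summed levels of 305.8 to 4972 CPM there and 294.8 to 1680 CPM in WT; Lcn2, Ltf and Ctsg were at 0 in WT-B and Chil3 in WT-D. Of 16 erythroid markers 14 were lower in 5G2del (492.1 to 629.1 CPM against 485.8 to 825.5 CPM), with Slc4a1 and Hba-a2 among those at 0 in 5G2del-C. Of 8 megakaryocyte and platelet markers 6 were higher (305.3 to 380.7 CPM against 216.8 to 410.5 CPM), with Treml1 at 0 in WT-B and WT-D. Of 6 B lineage markers 5 were higher (56.8 to 535.8 CPM against 31.3 to 133.3 CPM). T and NK markers summed to at most 22.3 CPM and macrophage and dendritic cell markers to at most 24.8 CPM in any library, with 3 of 4 and 4 of 7 lower. Stromal and endothelial markers (4 of 7 higher) summed to between 43.2 and 72.2 CPM. Stem and progenitor markers were higher in 5 of 7, with summed levels of 917.6 to 1110 CPM in 5G2del and 852.1 to 1204 CPM in WT. Xist, the one sex-linked marker measured, lay between 10.84 and 11.41 in all libraries.

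No member lay inside the stretch of chromosome 5 from Rasa4 to Zan (positions 136083916 to 137477064, mm10), which had been marked off in an earlier look at these data from the lower values of its genes. The nearest was Eif4h, 1.44 Mb before it, at 7.86, 8.09 and 7.96 in 5G2del and 7.97, 7.91, 7.56 and 7.86 in WT (0.15 ± 0.15; 0.08 without 5G2del-B and 0.06 without WT-C). Eif3b lay 2.94 Mb and Eif2ak1 6.34 Mb after it, and Eif2b1 11.5 Mb and Eif2b4 104.9 Mb before it. Of these 5 genes only Eif2ak1 had a lower mean in 5G2del, and none passed the test.

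Other genes of the translation machinery were compared as lists, none with a gene past the adjusted test. Partners of initiation had 10 of 19 higher means (median 0.01), or 7 of 19 without mitochondrial rRNA in the library size (-0.07). Those with the lowest unadjusted p were Pdcd4, an inhibitor of eIF4A (-0.33 ± 0.17, or -0.17 without 5G2del-B and -0.49 without 5G2del-A), Dhx29, a scanning helicase (0.47 ± 0.27), and Impact, an inhibitor of GCN2 (-0.26 ± 0.19). Genes of mTORC1 and MNK, which act on eIF4F, had 15 of 27 higher (median 0.03), and 13 of 27 without mitochondrial rRNA in the library size (-0.05) or with quantile normalization (-0.01). Of these, Castor2, a relative of the arginine sensor Castor1, was at -0.56 ± 0.28, Lamtor2, of the lysosomal scaffold, at 0.55 ± 0.30 (0.34 without WT-A) and Sesn1, a sestrin that restrains mTORC1, at -0.27 ± 0.15. Rheb, the activator of mTORC1, lay at 4.98, 5.00 and 4.89 in 5G2del, below all WT libraries at 5.08, 5.12, 5.14 and 5.34 (-0.21 ± 0.16). Of all genes, 2.78% had groups apart in that direction. Castor2 and Rheb lie on chromosome 5, as does Lamtor4, which had a higher mean in 5G2del (0.47 ± 0.30). Their relation to the deletion was not tested.

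Ribosomal protein genes had 82 of 83 higher means, with a median of 0.24, but this rested on WT-A. Their mean level was 9.02, 9.27 and 9.65 in 5G2del and 8.23, 9.12, 9.46 and 9.35 in WT. WT-A was far below the other libraries, and without it 33 of 83 were higher and the median was -0.04. The mean of the initiation factors in WT-A, 5.96, lay inside the range of the other libraries (5.80 to 6.13). The lowest of these, in 5G2del-A, includes Eif4ebp3 at 0 counts. The median deviation of the initiation factors from their own means was 0.04 in WT-A, also inside the range of the others (-0.07 to 0.17). Without WT-A 35 of 51 initiation factor genes were higher in 5G2del.

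**Figure D5:**
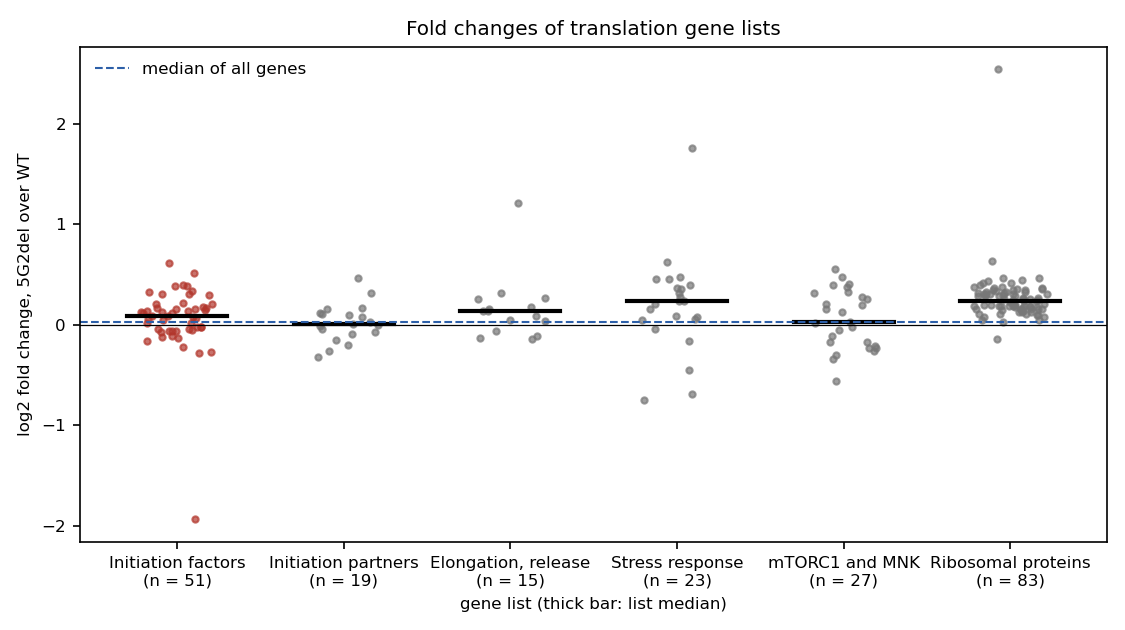
Log2 fold change, 5G2del over WT, of each gene in the initiation factor family (red) and in 5 other lists of the translation machinery (grey), with the list median as a thick bar and the median of all 16760 genes as a dashed line at 0.03. The family centres at 0.08; the ribosomal proteins centre at 0.24, a value that was -0.04 without WT-A.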

How the data were processed

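Total RNA was amplified (Ovation RNA-Seq) and sequenced from both ends, per the labels' protocols. The submitters' processing notes name STAR (2.7.9a), RSEM (1.3.0), limma (3.50.3) and the builds mm10 and GRCh38, without roles; annotation, strand setting and low-value filter are not stated there. The authors deposited log2 CPM per gene and library, with a fold change, t score, p-value and false discovery rate per gene from their own fit. The columns show a library's group but not its sample. The deposited log2 CPM step back to expected counts with an offset of 0.5; 71.3% of these were whole within 0.01, so no count model was used, and a voom fit on them gave back the authors' fold changes within 4.49e-14.

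All 16760 genes were fitted with limma 3.58.1 (lmFit, eBayes with trend; R 4.3.3) on the deposited log2 CPM, with Benjamini-Hochberg adjustment over all of them. The fit had been tested on simulated data. Exact permutation tests ran over the 35 splits of 3 against 4 libraries. Exon lengths and positions came from GENCODE M21 (mm10), and promoters from RefSeq. Values in every library are printed for the 3 largest and 3 smallest fold changes, members whose groups do not overlap and those on chromosome 5. They are also printed for regulated nodes and the highest and lowest per length. Up to 3 genes of each list are named by smallest p. Atf4, Ddit3, Rheb, Lamtor4, Dhps, Slamf1, Eif3i, Eif4e2 and Eif4a2 were added after their values were seen. Members, lists and motifs were chosen with earlier results of these data known. Alternatives were voom, limma without trend, 3 other scalings, a pseudocount of 1 CPM, a filter at a mean log2 CPM of 0 and each library left out; those on the other gene lists were chosen after seeing the data. Reads of paralogs and overlapping genes are uncertain: 14 members overlap a gene on the opposite strand. Counting floors cover counting error only, as amplified reads are not independent molecules. Single values of some marker genes are not reported here.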

Additional observations from a re-analysis of the deposited data

Results flagged for a closer look

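Among the 4 WT libraries, 4 of the 51 initiation factor genes had a library far from the other three, beyond Dixon's 95% critical value; chance flags about 1 in 20 groups. Eif2b1, the alpha subunit of eIF2B, was at 5.30 log2 CPM in WT-A, while WT-B, WT-C and WT-D lay between 4.86 and 4.90. Eif3e, an eIF3 subunit, was at 8.57 in WT-C against 7.91 to 8.01. Eif3l, another eIF3 subunit, was at 6.91 in WT-B against 6.54 to 6.59. Eif4e3, a cap-binding relative that overlaps a protein-coding gene on its own strand, was at 3.68 in WT-B against 4.71 to 4.91.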

How the results depend on the processing

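No member was called under any of the 14 alternatives; the lowest adjusted p was 0.833 (limma, without WT-B). The number of members at an unadjusted p under 0.05 was 1 with voom (Eif2b2) and 0 to 2 without a library: Eif2b2 and Eif3i without 5G2del-A, Eif2b2 and Eif4ebp1 without WT-B, Eif4e2 without WT-D. The shares of all genes were 3.73% with voom and 3.9%, 5.85% and 3.82% without those libraries. Members whose groups do not overlap numbered 1 to 8 without a library, 8 (15.7%) without 5G2del-A, 6 (11.8%) without WT-B, 5 (9.8%) without 5G2del-C and 3 (5.88%) without 5G2del-B or WT-A, beside 13.8%, 11.6%, 12.0%, 11.6% and 10% of all genes. Eif4e was among them each time, since leaving out a library cannot make groups that lie apart overlap. With plain sums without mitochondrial rRNA as library sizes, the only such gene was Eif2ak2, beside 4.91% of all genes. That setting also drops the library sizes behind the deposited values. The members with higher means numbered 27 to 36 and the median lay between 0.01 and 0.15. Of the 51 genes, 27 kept their sign throughout and 24 turned, and the largest absolute fold change among the latter was 0.204. Among genes with printed libraries, the sign of Eif4a1 turned with quantile normalization (-0.015) and without mitochondrial rRNA in the library size (-0.061). Leaving out each library gave ranges of -0.089 to 0.11 for Eif4a1, -0.16 to 0.029 for Eif2s1, -0.31 to 0.036 for Eif2ak1, -0.072 to 0.29 for Eif2ak3, -0.19 to 0.22 for Eif2b1 and -0.43 to 0.031 for Eif2b5. The cause was not tested. No paired analysis was possible because the table's columns carry no replicate numbers. With 3 against 4 libraries, 35 of the 51 intervals reach beyond 0.5 log2 units in some direction.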
